A study of Homo sapiens with 8 samples.

Results

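Versipelostatin added to HT1080 cells under 2-deoxy-D-glucose (2DG) was read as one comparison, the log2 value on the array of cells given 2DG with versipelostatin minus that on the array of cells given 2DG alone. The members were the probe sets, groups of short probes that each read 1 stretch of a transcript, that reached log2 6 on at least 1 of the 8 arrays of the series. These were 15503 of 54613 probe sets without the manufacturer's controls, and the comparison used 2 of the 8 arrays. The difference itself played no part in choosing them, but 121 of them reached the limit only with 2DG and versipelostatin and 137 only with 2DG alone, and 86 of the former and 89 of the latter differed by at least 2-fold.

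HT1080 is a human fibrosarcoma line. The series exposed it for 18 h, in medium with glucose (normal growth) or with 10 mM 2DG, to no compound, compound C, versipelostatin or phenformin, and hybridised 1 Affymetrix U133 Plus 2.0 array per condition. The 4 arrays used most here came from untreated cells (control), cells given 10 μM versipelostatin, cells given 10 mM 2DG, and cells given both agents at these doses. All were of the same unmodified line and of the same duration. With 1 array each, no difference below has a replicate error or a test, and a value that was lower in a dish cannot tell less RNA per cell from fewer cells of a kind.

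2DG is a glucose analogue that is phosphorylated but not carried through glycolysis, and it also disturbs the addition of sugars to proteins in the endoplasmic reticulum (ER). Unfolded proteins in the ER set off the unfolded protein response (UPR), in which the sensors PERK, IRE1 and ATF6 act through the transcription factors ATF4, spliced XBP1 and cleaved ATF6 to raise chaperones, degradation factors and amino acid metabolism. Versipelostatin is a macrocyclic compound from a Streptomyces strain, known for lowering the induction of the chaperone GRP78, coded by HSPA5, in glucose-deprived tumour cells.

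With versipelostatin in 2DG, 1077 probe sets were at least 2-fold higher (6.95% of those read) and 2843 were at least 2-fold lower (18.3%). Read by gene, on the probe set with the highest mean of each of 8429 genes, 345 genes were at least 2-fold higher (4.09%) and 1688 at least 2-fold lower (20%), with a median difference of -0.18 on the log2 scale. The same compound in normal growth, against the control array, left 207 genes higher (2.46%) and 209 lower (2.48%), with a median of -0.02. The standard deviation over genes was 0.94 in 2DG and 0.51 in normal growth, so the same dose went with a wider spread of differences in 2DG. The 2 comparisons share no array. Across the 8429 genes, which share these libraries and one normalization and are not independent, the differences in the 2 media had a Pearson r of -0.06.

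The poly-A control transcripts, added to the RNA before labelling, read 0.47 higher (log2, median of 24 probe sets) on the array with 2DG and versipelostatin than on the 2DG array, and the hybridization controls read 0.33 higher. In normal growth versipelostatin moved them by 0.05 and 0.05. Their part in the results was not tested. Of the probe sets past 2-fold, 27.5% were higher as deposited, 43.8% after each array was centred on its median, 39.9% after quantile normalization and 10.2% after scaling on the poly-A controls. Centring added 0.23 to each difference and scaling on the poly-A controls lowered it by 0.47, so the size of the excess of lower genes depends on the scale. Of 43 gene lists described below, the 17 with medians between -0.22 and 0.28 changed sign under at least 1 of these scalings, and the other 26 kept theirs. Of the fibroblast and mesenchymal markers 5 of 7 were expressed, VIM at 13.2 to 13.6 on the 8 arrays, while THY1 and S100A4 stayed under log2 6 and no epithelial, leukocyte or endothelial marker reached it.

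**Figure D1:**
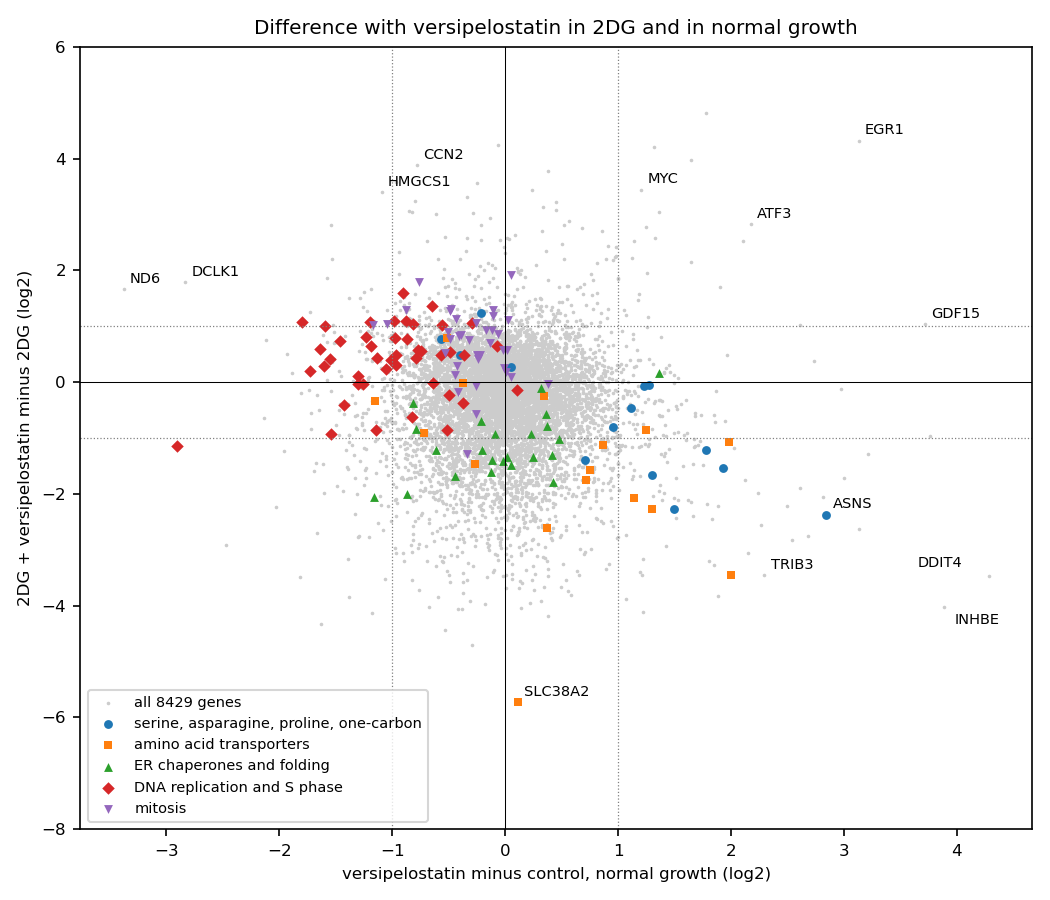
Each grey point is 1 of 8429 genes, placed by its log2 difference with versipelostatin in normal growth (x axis, versipelostatin minus control) and in 2DG (y axis, 2DG with versipelostatin minus 2DG), with 5 gene lists coloured and dotted lines at 2-fold. Amino acid genes lie mostly to the right of 0 and below it, ER chaperones below 0 near the middle, and DNA replication genes mostly to the left and above 0.

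The mRNAs of proteins that fold secretory cargo were lower as a group. Of 23 measured ER chaperones and folding enzymes, 14 were at least 2-fold lower (60.9%, beside 20% of all genes), none was at least 2-fold higher, and the list's median was -1.21 against -0.18 over all genes. In normal growth the same 23 genes had a median of -0.02, with 1 gene higher and 1 lower. SDF2L1, a partner of the ER chaperone complex, read 7.74 in control, 6.57 with versipelostatin, 9.54 in 2DG and 7.49 with both. CRELD2, a secreted ER stress protein, read 8.23, 7.36, 10.23 and 8.23 in the same order. DNAJB11, a co-chaperone of GRP78, read 9.65, 9.21, 11.53 and 9.85. For each of these 3 genes the 2DG array was the highest, and the array with both agents was within 0.25 of control. The median of the list was 1.38 above control in 2DG alone and 0.19 above control with both agents; the 2DG array enters both the first of these and the main difference.

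HSPA5 itself differed less. It read 11.19 in control, 11.55 with versipelostatin, 12.89 in 2DG and 12.33 with both, a difference of -0.56 on its brightest probe set and -1.37 on its dimmer one. HSP90B1, which codes GRP94, read 10.39, 10.44, 12.33 and 10.85, a difference of -1.48. ERO1A, the oxidase that drives disulfide formation, was within 1.2-fold, with 9.66 in 2DG and 9.56 with both.

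The promoters of these 2 chaperones, and of 2 amino acid response genes described further on, are shown because they hold the DNA elements through which ATF6 and ATF4 are known to act. Each is the 250 bases before the start site from RefSeq on GRCh38.p14, written in the direction of the gene. HSPA5 is at chr9:125241344-125241593 on the minus strand and HSP90B1 at chr12:103930160-103930409 on the plus strand. ASNS is at chr7:97872409-97872658 on the minus strand and CHAC1 at chr15:40953221-40953470 on the plus strand. Capitals mark the ER stress element (CCAAT, any 9 bases, CCACG) in the first 2 and the C/EBP-ATF element (TGATG, any 1 base, AA) in the others, on either strand.
HSPA5: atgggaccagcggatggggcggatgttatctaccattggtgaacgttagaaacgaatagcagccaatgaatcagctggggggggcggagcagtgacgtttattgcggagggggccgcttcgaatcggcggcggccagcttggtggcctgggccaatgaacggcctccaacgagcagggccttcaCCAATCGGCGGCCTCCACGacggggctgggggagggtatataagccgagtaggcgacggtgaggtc
HSP90B1: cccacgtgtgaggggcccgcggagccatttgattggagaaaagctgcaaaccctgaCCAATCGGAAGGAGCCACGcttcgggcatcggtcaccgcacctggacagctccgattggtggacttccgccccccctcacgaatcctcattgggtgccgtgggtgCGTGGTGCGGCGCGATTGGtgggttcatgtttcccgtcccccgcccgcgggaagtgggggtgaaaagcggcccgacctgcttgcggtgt
ASNS: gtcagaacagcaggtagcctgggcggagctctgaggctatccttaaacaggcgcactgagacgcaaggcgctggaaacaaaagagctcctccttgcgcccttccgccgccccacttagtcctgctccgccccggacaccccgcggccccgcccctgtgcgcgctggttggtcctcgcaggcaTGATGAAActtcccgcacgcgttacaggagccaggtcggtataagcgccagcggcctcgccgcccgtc
CHAC1: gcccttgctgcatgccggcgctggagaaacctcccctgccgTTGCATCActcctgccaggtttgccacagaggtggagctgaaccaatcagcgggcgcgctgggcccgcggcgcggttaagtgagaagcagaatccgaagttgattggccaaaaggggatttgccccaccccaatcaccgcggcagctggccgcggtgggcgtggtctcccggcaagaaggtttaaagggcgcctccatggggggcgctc
The ER stress element was found in 22 of 27305 promoters of this length (0.0806%) and 10 of 7077 of expressed genes (0.141%), in 5 of the 21 matched ER chaperone promoters (23.8%), in 3 of 1411 promoters of genes at least 2-fold lower, and in 0 of 282 of genes at least 2-fold higher. The C/EBP-ATF element was found in 3.19% of all promoters and 1.48% of those of expressed genes, against 1.63% of those of genes at least 2-fold lower and 2.48% of those at least 2-fold higher. It was in 5 of 70 promoters (7.14%) of the genes that were at least 2-fold lower in 2DG and at least 2-fold higher in normal growth with versipelostatin. The shorter UPR element core TGACGTG was in 1.71% of all promoters, 2.35% of those of expressed genes and 2 of 21 ER chaperone promoters. It was in 2.27% of those of genes at least 2-fold lower and 2.13% of those at least 2-fold higher. A match says only that the letters are there.

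The other steps of the secretory route were lower by less. Of 18 genes of ER-associated degradation, 9 were at least 2-fold lower and none higher, with a median of -0.97 in 2DG and 0.22 in normal growth. HERPUD1, which organises the degradation complex, read 9.16 in control, 10.06 with versipelostatin, 10.92 in 2DG and 7.58 with both, so the array with both agents was the lowest of the 4. SEL1L, the adaptor of the ubiquitin ligase HRD1, read 7.80, 8.60, 9.38 and 6.95. DERL1 was within 1.2-fold, with 9.32 in 2DG and 9.52 with both. With both agents HERPUD1 and SEL1L differed from control by -1.58 and -0.85, against -0.24 for SDF2L1 and 0.00 for CRELD2.

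Of 22 ER translocation genes 4 were at least 2-fold lower (SEC11C, TRAM1, SEC61A1 and SPCS3, by 1.17 to 1.28 on the log2 scale) and the median was -0.33. COPI and COPII vesicle genes had 4 of 30 lower and a median of -0.35. N-glycosylation and hexosamine genes had 6 of 29 lower and a median of -0.45. These shares, 18.2%, 13.3% and 20.7%, lie around the 20% of all genes. The largest differences of the glycosylation list were in ALG2 and MOGS. ALG2, a mannosyltransferase of the lipid-linked sugar, read 8.39 in 2DG and 5.83 with both. MOGS, a glucosidase that trims protein-bound sugars, read 7.58 and 5.36.

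**Figure D2:**
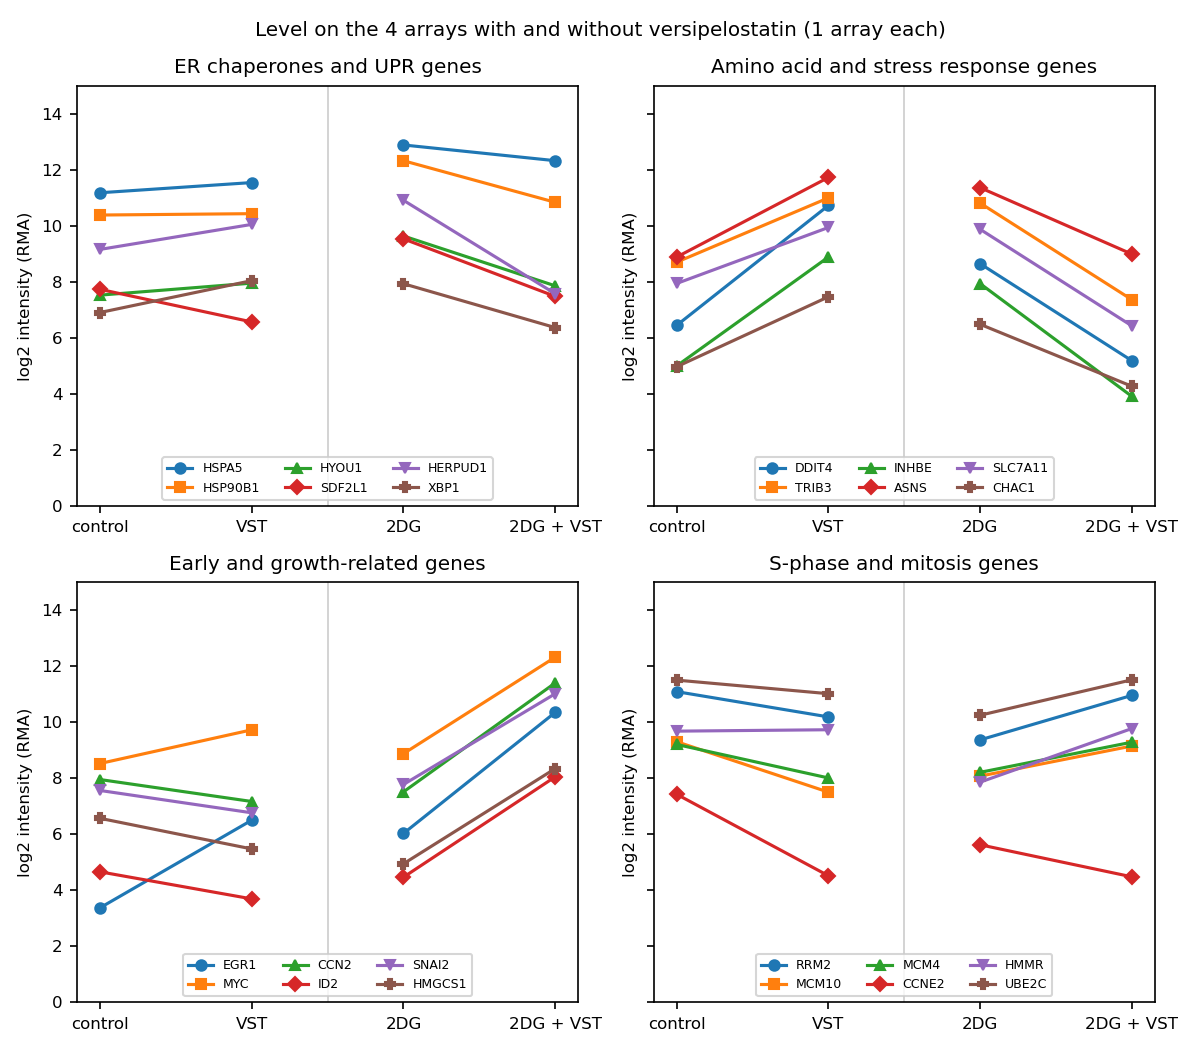
Log2 intensity (y axis) of 24 genes on 4 arrays (x axis: control, versipelostatin or VST, 2DG, and 2DG with VST), 1 array per point, in 4 panels of 6 genes, with lines joining the arrays of one medium. In the amino acid panel every line goes up in normal growth and down in 2DG; in the panel of early and growth-related genes every line goes up in 2DG.

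The sensors and transcription factors of the response split. Of 23 measured, 8 were lower and 3 higher by at least 2-fold in 2DG (median -0.61), whereas in normal growth 12 were higher and 1 lower (median 1.09). EIF2AK3, which codes PERK, read 6.37 in control, 6.05 with versipelostatin, 6.86 in 2DG and 2.94 with both. The last value is not above background, taken as the median of that array over all probe sets (3.23), so the gene was at least 12.3-fold lower. ERN1, which codes IRE1, read 4.72, 6.24, 6.29 and 4.59, and its target XBP1 read 6.91, 8.05, 7.94 and 6.37. Both were above control with either agent alone and slightly below it with the pair. ATF6 read 7.31 in 2DG and 7.39 with both, a difference of 0.08.

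ATF4 mRNA read 11.48 in control, 12.20 with versipelostatin, 12.24 in 2DG and 11.64 with both. The pseudokinase gene TRIB3, which ATF4 and CHOP raise, read 8.71, 11.00, 10.82 and 7.37 and was lowest with both. CHAC1, a glutathione-degrading enzyme, read 4.97, 7.47, 6.49 and 4.27. DDIT3, which codes CHOP, did not follow them: it read 6.33, 9.30, 8.83 and 8.72, so that it was above control on all 3 arrays with an agent. CEBPB was likewise within 1.2-fold, with 11.75 in 2DG and 11.60 with both. The 3 genes at least 2-fold higher were ATF3, NFIL3 and PPP1R15A. ATF3, a stress-induced repressor, read 5.13, 7.31, 6.36 and 9.19, and NFIL3, a basic leucine zipper factor, read 7.39, 9.03, 8.47 and 10.63. These 2 were higher with versipelostatin in either medium.

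Amino acid transporters were also among the lists with the lowest medians. Of 16 measured, 10 were at least 2-fold lower in 2DG and none higher (median -1.30), and 5 were higher and 1 lower in normal growth (median 0.54). SLC38A2, which imports small neutral amino acids, had the largest decrease of all 8429 genes: it read 11.00 in control, 11.11 with versipelostatin, 11.70 in 2DG and 5.98 with both, 52.9-fold lower, and its other 2 probe sets differed by -5.10 and -4.69. Only the array with both agents was low among these 4. SLC7A11, the cystine importer, read 7.95, 9.95, 9.88 and 6.43, and SLC7A5, the leucine importer, read 8.55 in control, 9.85 with versipelostatin and 9.27 in 2DG and was 2.27 lower with both than in 2DG. Each was highest with versipelostatin alone and lowest with both. SLC7A2, an arginine and lysine importer, was within 1.2-fold (7.98 and 7.97).

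Enzymes of serine, asparagine, proline and one-carbon metabolism had 6 of 14 lower, 1 higher and a median of -0.63 in 2DG, against 8 higher, 0 lower and a median of 1.17 in normal growth. ASNS, asparagine synthetase, read 8.89 in control, 11.73 with versipelostatin, 11.37 in 2DG and 8.99 with both. PHGDH, the first enzyme of serine synthesis, read 6.83, 8.76, 8.61 and 7.07. For ASNS and PHGDH the pair of agents left a value within 0.25 of control, although either agent alone was over 1.7 above it. MTHFD2, a mitochondrial folate enzyme, did not follow: it read 10.79, 12.02, 11.19 and 11.13. Among cytosolic tRNA synthetases 3 of 17 were lower (17.6%, beside 20% of all genes), with a median of -0.44 in 2DG and 0.49 in normal growth. The 3 were WARS1, AARS1 and SARS1, lower by 2.03, 1.56 and 1.48 on the log2 scale. KARS1 read 12.21 in 2DG and 12.16 with both.

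Differences of opposite direction in the 2 media were not limited to these lists. Of the 207 genes at least 2-fold higher with versipelostatin in normal growth, 87 were at least 2-fold lower in 2DG (42.0%), and 22 were higher in both (10.6%), beside 20% and 4.09% of all genes. The 87 were 5.15% of the genes lower in 2DG. Of the 209 genes lower in normal growth, 54 were also lower in 2DG (25.8%) and 21 were higher (10.0%). The difference in 2DG minus that in normal growth was at least 2-fold upward for 709 genes (8.41%) and at least 2-fold downward for 1853 (22%). The widest downward gap was in INHBE, which codes the inhibin beta E chain and read 5.00 in control, 8.89 with versipelostatin, 7.94 in 2DG and 3.91 with both. DDIT4, an inhibitor of mTORC1 also called REDD1, read 6.45, 10.73, 8.65 and 5.19. Both were higher than control with either agent and lower than control with the pair.

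**Figure D3:**
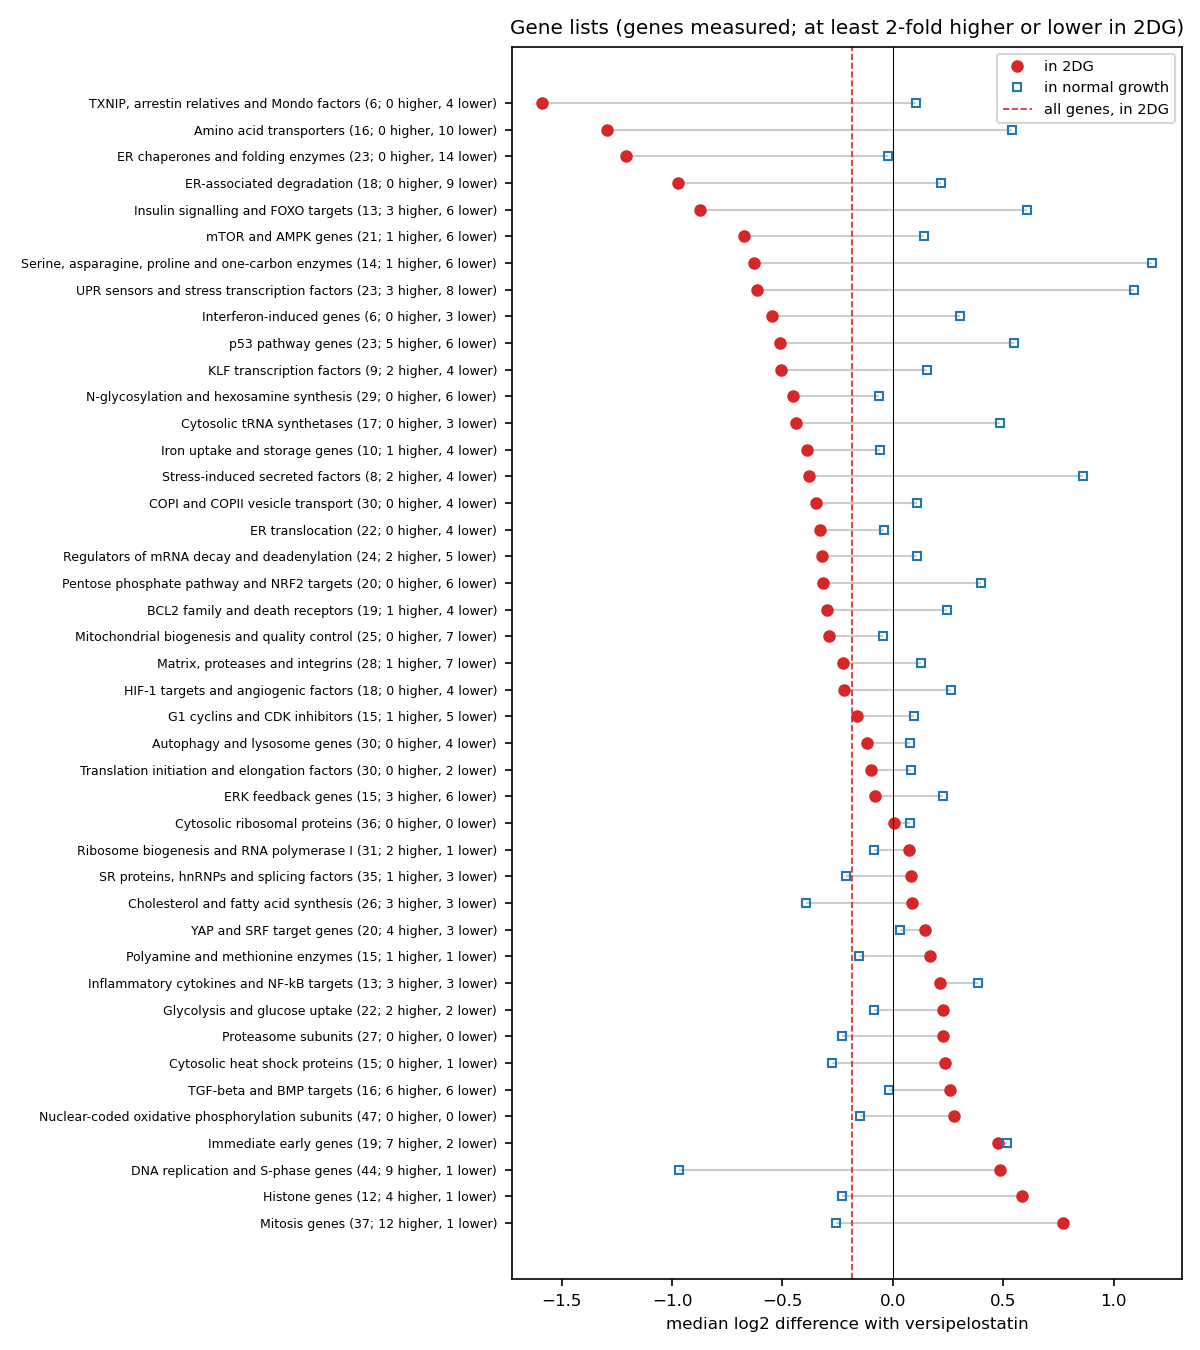
Median log2 difference with versipelostatin (x axis) of the measured members of each of 43 gene lists (y axis, with the number measured and the numbers past 2-fold each way in 2DG), in 2DG (filled circles) and in normal growth (open squares). The dashed line is the median of all genes in 2DG, -0.18; the circles run from -1.59 for the TXNIP list to 0.77 for mitosis genes.

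Of the 1688 genes at least 2-fold lower, 177 (10.5%) were at least 2-fold above control in 2DG alone, beside 3.06% of all genes, and 1500 (88.9%) were within 2-fold of it, beside all but 418 of the 8429 genes. With the pair of agents 1164 (69.0%) were at least 2-fold below control. This share follows in part from choosing genes lower than on the 2DG array, where most stood near control. Over all genes the median with the pair was -0.13 against control. The counts against 2DG alone use that array a second time. After SLC38A2 came BTBD7, at 7.91 in 2DG and 3.48 with both, ZC3HAV1, an antiviral RNA-binding protein, at 7.56 and 3.23, and MAML3, a Notch coactivator, at 7.77 in 2DG and 4.18 lower with both. RASA2, a Ras GTPase-activating protein, read 7.32 and 3.26, and the histone methyltransferase SETD1B read 8.36 and 4.59. Among 50 genes that ended at background, with a bound of at least 2-fold, the largest bounds were for GBP3, an interferon-induced GTPase (at least 16.7-fold lower), and CKMT2-AS1 (at least 16.2-fold). RICTOR, the defining subunit of mTORC2, was at least 10.8-fold lower. The antisense gene CKMT2-AS1 is named as the array annotation names it.

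Among the 15 largest increases, CREB5, a CREB family factor, read 4.66 in control, 6.44 with versipelostatin, 5.24 in 2DG and 10.07 with both, although its second probe set was 1.48 lower. EGR1, an immediate early zinc finger factor, read 3.38, 6.51, 6.04 and 10.36, and all 3 of its probe sets were at least 4.27 higher. MYC, the growth-promoting transcription factor, read 8.53, 9.74, 8.89 and 12.33. Each of the 3 was highest with both agents and also higher with versipelostatin alone than in control. SIK1, a kinase that restrains CREB coactivators, read 5.05 in 2DG and 9.02 with both, and VMP1, an ER protein of autophagosome formation, read 5.07 and 9.28. EDN1, the endothelin precursor, read 3.50 and 7.06. FOS came from a 2DG value at background and was at least 5.94-fold higher.

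Of 19 immediate early genes 7 were at least 2-fold higher (36.8%, beside 4.09% of all genes) and 2 lower, with a median of 0.48 in 2DG and 0.52 in normal growth. JUN read 10.17 in control, 9.70 with versipelostatin, 9.64 in 2DG and 11.49 with both, whereas FOSL2 read 6.83, 6.84, 6.87 and 4.49. So members of the one AP-1 family stood on both sides. MCL1, also an anti-apoptotic gene, was within 1.2-fold on its brightest probe set (10.95 and 11.04), while others were 1.70, 1.75 and 0.11 higher. The ERK feedback genes split in the same manner, with 3 of 15 higher and 6 lower (median -0.08): SPRY2 was 3.02 and DUSP1, a MAP kinase phosphatase, 2.59 higher, while the Ras inhibitors SPRED1 and SPRED2 were lower by 2.20 and 2.43 on the log2 scale. KLF factors had 2 of 9 higher (22.2%) and 4 lower (44.4%), beside 4.09% and 20% of all genes. KLF5 was 2.11 and KLF6 1.73 higher, while KLF3 differed by -3.66 and KLF13 by -2.92.

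Among 20 YAP and SRF targets 4 were higher and 3 lower (median 0.15). CCN2, which codes connective tissue growth factor, read 7.96 in control, 7.18 with versipelostatin, 7.52 in 2DG and 11.41 with both. ANKRD1, a YAP target, read 5.44, 5.89, 5.62 and 8.71. The Hippo kinase LATS2 went the other way, from 8.04 in 2DG to 5.69 with both, as did AJUBA, from 10.24 to 7.83. TGF-beta and BMP targets had 6 of 16 higher and 6 lower (37.5% each, beside 4.09% and 20% of all genes, median 0.26). Read as the median of each gene's probe sets, 6 were higher and 3 lower. ID2, an inhibitor of basic helix-loop-helix factors, read 4.66, 3.70, 4.47 and 8.06, and SNAI2, which represses E-cadherin, read 7.57, 6.77, 7.79 and 11.03. The Smad corepressor SKI read 8.05 in 2DG and 5.33 with both, and TGIF1 7.64 and 4.38.

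Inflammatory and NF-kB genes had 3 of 13 higher and 3 lower (23.1% each, beside 4.09% and 20% of all genes, median 0.21). TNFAIP3 and NFKBIA, both inhibitors of NF-kB that NF-kB itself raises, were 3.02 and 2.81 higher, and CXCL8 was 1.94 higher. NFKBIA read 7.40 in control, 7.19 with versipelostatin, 7.52 in 2DG and 10.33 with both. IL1A went the other way, with 5.78, 7.61, 6.13 and 3.67. Of 6 interferon-induced genes measured 3 were lower (50.0%, beside 20% of all genes) and none higher (median -0.55). This depended on the expression limit. At log2 7 the list kept 3 genes, with 0 lower and a median of -0.04. At log2 5 it had 10 genes, with 3 lower and a median of -0.15. IFIT3 read 6.95 in 2DG and 3.84 with both.

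The medians of the mitosis, DNA replication and histone lists were above 0 with versipelostatin in 2DG and below 0 with it in normal growth. The list of G1 cyclins and CDK inhibitors had -0.16 in 2DG and 0.10 in normal growth. Of 37 mitosis genes 12 were at least 2-fold higher and 1 lower in 2DG (median 0.77), against 0 higher and 2 lower in normal growth (median -0.26). Of 44 DNA replication and S-phase genes 9 were higher and 1 lower in 2DG (median 0.48), against 0 higher and 20 lower in normal growth (median -0.97). Scaled on the poly-A controls, the mitosis list had 2 higher and 2 lower in 2DG (median 0.30) and the replication list 1 higher and 5 lower (median 0.01). RRM2, a ribonucleotide reductase subunit, read 11.10 in control, 10.20 with versipelostatin, 9.38 in 2DG and 10.97 with both. HMMR, a spindle protein, read 9.69, 9.74, 7.87 and 9.78, and CDCA3, a mitotic entry factor, read 8.81, 8.05, 6.99 and 8.77. In each of these 3 the 2DG array was the lowest and the array with both agents was within 0.25 of control. Against control the mitosis list had a median of -1.06 in 2DG and -0.22 with both agents.

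CCNE2, a G1/S cyclin, was the S-phase gene that was lower: it read 7.43 in control, 4.52 with versipelostatin, 5.63 in 2DG and 4.49 with both. ASPM was the mitosis gene that was lower, from 8.85 to 7.58. Of 12 histone genes measured 4 were higher and 1 lower (median 0.58). H2AC8 was at least 18.9-fold higher, H2BC5 2.58 (with a second probe set 1.13 lower) and the linker histone H1-2 2.41 higher, while H2AX, the variant phosphorylated at DNA breaks, was lower by 1.41 on the log2 scale. G1 cyclins and CDK inhibitors had 1 of 15 higher (6.67%), which was MYC, and 5 lower (33.3%), beside 4.09% and 20% of all genes (median -0.16). CDKN1B, which codes p27, read 7.56, 7.81, 7.57 and 4.28, and CDKN1A, which codes p21, read 7.49, 8.18, 7.25 and 5.73. Both inhibitors were lowest with both agents.

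The p53 pathway list had 5 of 23 higher (21.7%) and 6 lower (26.1%), beside 4.09% and 20% of all genes. Its median was -0.51, against 0.55 in normal growth. GADD45A read 9.59 in control, 10.84 with versipelostatin, 9.92 in 2DG and 12.70 with both, and the kinase PLK2 read 7.18, 7.51, 7.51 and 10.22. PMAIP1, which codes the death-promoting protein NOXA, read 8.65, 9.41, 9.04 and 10.98. TP53INP1 went from 6.78 in 2DG to background, at least 11.7-fold lower. Of 19 BCL2 family and death receptor genes PMAIP1 was the 1 higher and 4 were lower (21.1%, beside 20% of all genes, median -0.30). CASP8, the initiator caspase of death receptors, read 7.13, 7.20, 7.17 and 3.92, and the caspase inhibitor XIAP read 7.46, 7.71, 7.79 and 5.66.

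The mTOR and AMPK list had 6 of 21 lower (28.6%) and 1 higher (4.76%), beside 20% and 4.09% of all genes, with a median of -0.67. RRAGC, a Rag GTPase, read 8.14 in control, 8.04 with versipelostatin, 9.44 in 2DG and 7.64 with both, and the AMPK-activating kinase gene STK11 was lower by 1.45 on the log2 scale with both than in 2DG, and by 0.85 with versipelostatin than in control. The single gene higher was PRKAA1, a catalytic AMPK subunit, from 5.33 to 6.70. EIF4EBP1, which codes the translation inhibitor 4E-BP1, read 10.66 and 10.63. Insulin signalling and FOXO targets had 6 of 13 lower and 3 higher (median -0.87). PIK3R1, the regulatory subunit of PI3K, read 7.19, 6.81, 7.20 and 3.63, and IRS1 read 7.60 in 2DG and 5.55 with both, while CITED2 went from 5.97 to 9.29. The 6 measured members of the TXNIP and Mondo list had 4 lower and none higher (median -1.59); TXNIP, the glucose-responsive thioredoxin inhibitor, read 5.32, 4.33, 8.79 and 6.97.

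Of 22 glycolysis and glucose uptake genes 2 were higher and 2 lower (median 0.23), and GAPDH was within 1.2-fold. SLC2A3, which codes the glucose transporter GLUT3, read 7.04 in control, 8.53 with versipelostatin, 8.25 in 2DG and 6.18 with both on its brightest probe set, while another was 1.03 higher. ALDOC, an aldolase, went from 6.08 to 7.93. HIF-1 targets and angiogenic factors had 4 of 18 lower (median -0.22), close to the share of all genes. Pentose phosphate and NRF2 genes had 6 of 20 lower (30.0%, beside 20% of all genes) and none higher (median -0.32). Among the lower were GCLC, the rate-limiting enzyme of glutathione synthesis, from 8.65 to 6.91, and the sulfiredoxin gene SRXN1 from 8.69 to 7.15.

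Cholesterol and fatty acid synthesis genes had 3 of 26 higher and 3 lower in 2DG (median 0.09), and 0 higher and 4 lower in normal growth (median -0.39). HMGCS1, which makes the precursor of mevalonate, read 6.58 in control, 5.48 with versipelostatin, 4.95 in 2DG and 8.35 with both, but its second probe set differed by only 0.05. EBP, a sterol isomerase, read 9.14, 7.92, 7.68 and 8.95, and DHCR7, the last enzyme of the pathway, 8.53, 7.68, 7.52 and 8.67. Either agent alone went with lower values of EBP and DHCR7, and the pair with values near control. The fatty acid elongase ELOVL6 went from 7.99 to 5.13 and the SREBP retention factor INSIG2 from 6.48 to 4.28.

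Matrix, protease and integrin genes had 7 of 28 lower (25.0%, beside 20% of all genes) and 1 higher (median -0.23). COL4A1, a basement membrane collagen, read 9.36 in control, 9.50 with versipelostatin, 9.52 in 2DG and 6.46 with both. ITGA2 went from 9.69 to 6.90. Stress-induced secreted factors had 4 of 8 lower and 2 higher (median -0.38). STC2 went from 7.86 to 4.83, whereas GDF15, a stress cytokine, read 7.99, 11.71, 10.06 and 11.10. Iron genes had 4 of 10 lower (40.0%) and 1 higher (10.0%), beside 20% and 4.09% of all genes (median -0.39). The transferrin receptor gene TFRC read 11.73, 11.45, 10.31 and 12.03, and its other probe sets were 1.79 and 2.04 higher. Polyamine and methionine enzymes had 1 of 15 higher, the spermidine acetyltransferase gene SAT1 (8.37 to 10.91), and 1 lower, MAT2A (9.53 to 7.81), with a median of 0.17.

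Autophagy and lysosome genes had 4 of 30 lower (13.3%, under the 20% of all genes, median -0.12), with WIPI1, a phosphoinositide effector, from 8.20 to 5.77. Mitochondrial biogenesis genes had 7 of 25 lower (28.0%, beside 20% of all genes) and none higher (median -0.29), with the mitochondrial helicase TWNK from 8.75 to 6.43. With each array centred, 3 were lower and 1 higher, beside 1247 and 618 of all 8429 genes. None of 47 nuclear-coded oxidative phosphorylation subunits passed 2-fold either way (median 0.28, range -0.29 to 0.70). They were brighter, with a median level of 10.90 in 2DG against 8.61 for the biogenesis list. Of the brightest of 5 equal groups of all genes by level, 5.46% were lower and 3.68% higher. mRNA decay regulators had 5 of 24 lower (20.8%) and 2 higher (8.33%), beside 20% and 4.09% of all genes, with a median of -0.32. The share of lower genes was thus near that of all genes. TOB1 and TOB2, which recruit the deadenylase, were lower by 2.10 and 1.97 on the log2 scale.

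None of 36 cytosolic ribosomal proteins passed 2-fold (median 0.01, range -0.28 to 0.12), and none of 27 proteasome subunits did (median 0.23). Both lists were also bright, with median levels of 13.31 and 10.63 in 2DG. Translation factors had 2 of 30 lower (median -0.10), ribosome biogenesis genes 2 of 31 higher and 1 lower (median 0.07), and cytosolic heat shock proteins 1 of 15 lower (median 0.24). Splicing factors had 1 of 35 higher and 3 lower (median 0.08); TRA2B, an SR-like splicing factor, went from 11.38 to 8.79 on its brightest probe set, while its other 2 were 0.78 and 0.70 higher.

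The share of genes that were lower changed with level and with gene length. Of 5 equal groups of genes by mean over the 8 arrays, the dimmest had 36.8% at least 2-fold lower, and the next had 24.3%, 20.6%, 13.0% and 5.46%. The shares at least 2-fold higher were between 3.32% and 4.86% in all 5. By length of the gene in the genome, over 8426 genes, 13.5% of the shortest of 5 groups and 25.9% of the longest were lower, and 118 of 1686 and 44 of 1685 genes were higher. These are descriptions across genes of the same 2 arrays. Families taken by symbol, chosen after the lists had been read, gave 78 of 185 ZNF zinc finger genes lower (42.2%) and 11 higher, with a median of -0.72 and a median level of 6.30. Of 142 solute carriers 42 were lower (29.6%, median level 6.98), and of 76 mitochondrial ribosomal proteins 3 were (3.95%, median level 9.30). The median levels of the ZNF genes and solute carriers lie in the level group with 24.3% lower. That of the mitochondrial ribosomal proteins lies in the group with 5.46% lower.

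**Figure D4:**
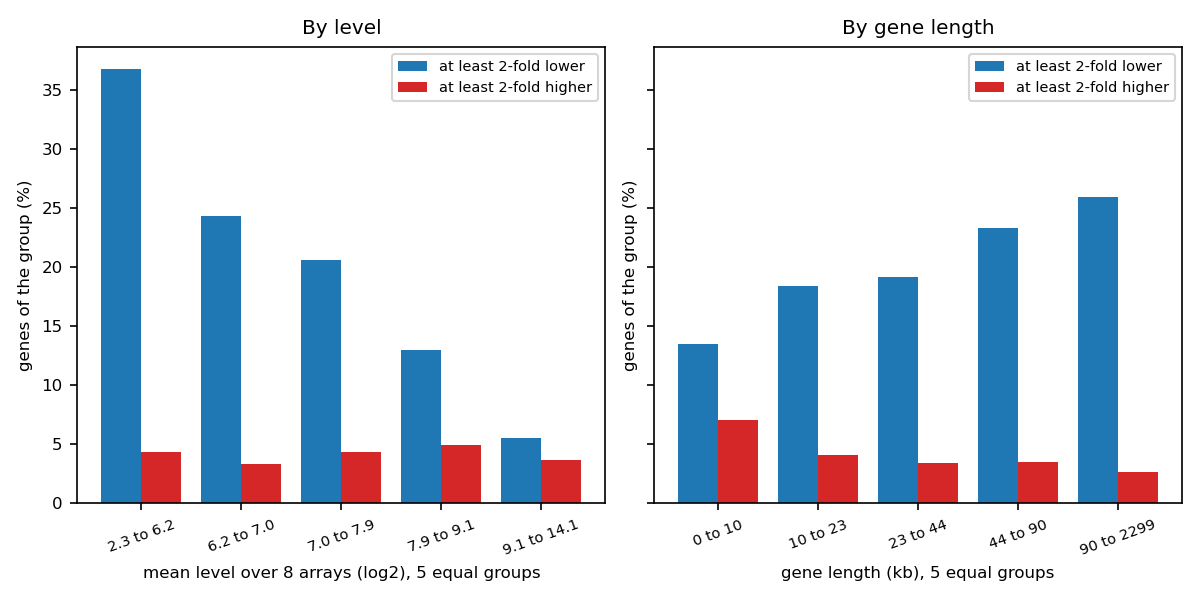
Share of genes in % (y axis) that were at least 2-fold lower (blue) or higher (red) with versipelostatin in 2DG, by 5 equal groups (x axis) of mean log2 level over 8 arrays (left) and of gene length in kb (right). Lower genes fall from 36.8% to 5.46% with level and go from 13.5% to 25.9% with length.

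Different probe sets of one gene often disagreed. The probe sets used for genes held 32.0% of all probe sets that were higher, while dimmer probe sets of the same genes held 51.9%. Of those dimmer probe sets 10.5% were at least 2-fold higher, beside 4.09% of the brightest. Among 3492 genes with several expressed probe sets, 118 (3.38%) had 1 at least 2-fold higher and another at least 2-fold lower. Versipelostatin in normal growth gave 5 such genes and 2DG alone against control gave 1. Relative to the genes with at least 2 probe sets past 2-fold, these were 17.6% of 672 genes in 2DG, 4.07% of 123 in normal growth and 0.763% of 131 for 2DG alone. By that choice the 2 probe sets stand apart in level: the median of the higher was 4.94 in 2DG and 7.10 with both, and that of the lower 7.24 and 5.53. The lower was the brightest of its gene in 57 of the 118, the higher in 25. Compound C and phenformin in 2DG, read against the same 2DG array, gave 62 and 125 such genes.

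FNIP1, a folliculin partner in nutrient sensing, was the widest of these by its smaller side: one probe set read 5.28 in 2DG and 8.83 with both, and the other 8.45 and 4.50. In normal growth versipelostatin moved them by -0.33 and 0.22. SLC30A1, a zinc exporter, had one probe set at 10.08 with both, 3.08 above 2DG, and another that went from 9.83 to 7.05. CHD2, a chromatin remodeller, had one at 4.91 and 9.39 and another at 6.47 and 3.88. The autophagy receptor SQSTM1 had one at 6.09 and 10.18, while its brightest went from 9.87 to 7.85. The kinase gene HIPK3 had one at 3.36 and 5.83 and another at 8.70 and 5.97. VEGFA, the angiogenic growth factor gene, went from 8.78 to 4.90 on its brightest probe set and had others that differed by -1.47, 0.98 and 1.68, and SKIL had a second that was 2.78 higher. Of the genes described above, ZC3HAV1, ASPM, ERN1, FOSL2, LATS2, XIAP, TNFAIP3 and KLF6 also had a probe set of the other sign, by less than 2-fold (0.03, 0.71, 0.18, 0.92, 0.91, 0.67, -0.62 and, for KLF6, -0.17 and -0.19). For all these genes a single direction holds only for the probe set named. Of the 118, 59 include a probe set whose name marks possible reading of several transcripts.

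**Figure D5:**
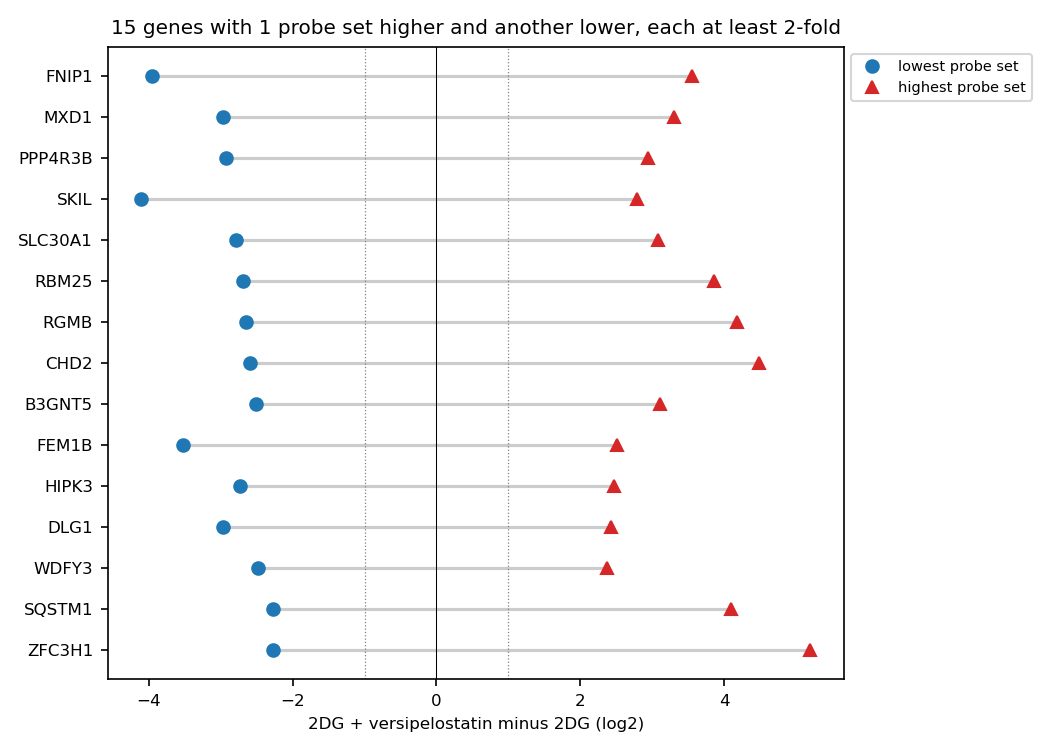
For the 15 genes with the largest opposite differences among their probe sets (y axis), the log2 difference of 2DG with versipelostatin minus 2DG (x axis) of the lowest (circle) and the highest (triangle) probe set, with dotted lines at 2-fold. Each gene has a probe set past 2-fold on both sides, from -3.95 to 3.55 for FNIP1.

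Compound C (10 μM) and phenformin, given at another dose, were read in 2DG against the same 2DG array, so the error of that array is in all 3 differences, and only their values are set side by side. Against control, the poly-A controls read 0.35 higher in 2DG alone. In 2DG with versipelostatin, compound C and phenformin they read 0.85, 1.22 and 0.67 higher. The differences below are not corrected for these shifts. The ER chaperone list had a median of -1.21 with versipelostatin, -0.99 with compound C and -0.74 with phenformin. The mitosis list had 0.77, -0.61 and 0.63, and the amino acid transporters -1.30, -0.45 and -1.22. Single genes did not all go with the lists. In the same order, HERPUD1 differed by -3.34, 0.21 and 0.35, and HSPA5, on its brightest probe set, by -0.56, 0.52 and 0.52. XBP1 differed by -1.57, -1.49 and 0.38, and SLC38A2 by -5.73, -0.44 and -5.35.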

How the data were processed

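RNA of HT1080 cells from 8 conditions was read on Affymetrix U133 Plus 2.0 arrays, 1 array per condition. The authors deposited RMA values on the log2 scale (background correction, normalization across the arrays and 1 value per probe set); software and version were not given in the sources used here. The number of arrays, not read depth, limits the precision. Here 62 control probe sets were left out, the log2 values were subtracted as deposited, and probe sets under log2 6 on all 8 arrays were dropped. Genes were named from GEO's platform annotation with symbols updated through RefSeq: 41097 probe sets had 1 gene symbol, 1801 several and 11777 none, and a gene was read on the probe set with the highest mean. With 1 array a side no test was run, and 2-fold marks a difference. The 43 lists (1141 genes, 903 measured) and the members were chosen with earlier results of these data known. The genes named were the 15 largest differences each way, up to 10 bounds each way, up to 6 of each list past 2-fold with its brightest member within 1.2-fold, the 10 widest gaps each way between the media, and genes the study measured by other assays; PPP1R15A, the gene families and the genes with opposite probe sets were chosen after their values were seen. The alternatives changed the fold limit, the expression limit, the scaling, the probe sets and the unit of counting. Python 3.11.15, numpy 2.4.6, pandas 2.3.3 and matplotlib 3.10.9 were used, and the counting was tested on simulated data.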

Additional observations from a re-analysis of the deposited data

Results flagged for a closer look

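In 38 of 272 genes chosen by the naming rule, versipelostatin went with differences of opposite direction in the 2 media, each at least 2-fold on the brightest probe set. The rule itself picks large differences and wide gaps between the media, so this share is not that of all genes. Of all 8429 genes, 87 were lower in 2DG and higher in normal growth, and 21 were higher in 2DG and lower in normal growth. With 1 array per condition the gap between the media was not tested. The gap is the log2 difference in 2DG minus that in normal growth. In 31 of the 38 named genes it was downward. It was -7.92 for INHBE, -7.75 for DDIT4, -5.76 for S100P, -5.75 for TRIB3, -5.71 for MYCT1, -5.45 for SLC7A11, -5.43 for OSCAR and -5.36 for KDM7A. Among amino acid genes it was also -5.22 for ASNS, -4.71 for CHAC1, -3.76 for CBS, -3.57 for SLC7A5, -3.47 for PHGDH, -3.34 for WARS1, -3.23 for SARS1, -3.22 for SLC1A4 and -2.97 for PSAT1. Among other stress and signalling genes it was -5.32 for SKIL, -5.12 for TGIF1, -5.01 for VLDLR (not above background with both agents), -4.94 for VEGFA, -4.29 for IL1A, -3.49 for ARRDC3, -3.23 for ERN1 and -2.71 for XBP1. It was -4.10 for COL6A3, -3.94 for WIPI1, -3.72 for NPC1, -3.56 for SLC2A3, -2.39 for GFPT1 and -2.12 for TFB1M. In 7 genes the gap was upward, with 2.27 for MCM4, 2.49 for EBP, 2.85 for CALD1, 4.35 for PTPRG-AS1 (from a 2DG value not above background), 4.49 for HMGCS1, 4.63 for DCLK1 and 5.04 for ND6, a complex I subunit coded in mitochondrial DNA. For SKIL, VEGFA and SLC2A3 another probe set was higher in 2DG by 2.78, 1.68 and 1.03. For ERN1, MYCT1 and HMGCS1 the second probe set differed by only 0.18, 0.11 and 0.05 in 2DG, and for NPC1 it was lower in both media.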

How the results depend on the processing

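The 1077 probe sets higher in 2DG became 2403 at 1.5-fold, 492 at 3-fold, 1735 with no expression limit, 1643 with each array centred, 553 scaled on the poly-A controls, 652 without probe sets ending in _x_at or _s_at, and 345 when counted by gene. The 2843 lower became 4566, 1320 and, on the poly-A scale, 4890, and 1688 by gene. The 1806 that differed at least 2-fold more upward in 2DG than in normal growth became 3289, 774, 3035 with no limit, 942 on the poly-A scale, 1083 without those probe sets and 709 by gene. The 3193 more downward became 4975, 1568, 5016, 1993 and 1853 under the fold limits, the poly-A scale, without those probe sets and by gene. Other settings stayed within 1.5 times. Of 228 named genes past 2-fold, 207 stayed past it in the same direction when centred, 215 under quantile normalization and 209 on the poly-A scale. Read as the median of its probe sets, 202 did, 22 came under 2-fold and 4 turned: EGLN1 (0.14), TNFRSF10B (0.65), TRA2A (2.65) and TRA2B (0.70). The cause was not tested. The sign of a list median turned for 5 lists when centred, 3 under quantile normalization and 12 on the poly-A scale. No paired analysis was possible because each condition had 1 array, and no array could be left out.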
